A study of Caenorhabditis elegans with 2 samples.

Results

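The genes described here are the snRNA genes of the nematode Caenorhabditis elegans, which encode the small nuclear RNAs of the spliceosome and related RNAs. They were all genes of the 6 nuclear chromosomes that Ensembl annotates with the biotype snRNA, except the trans-spliced leader genes whose symbols start with sls-1 or sls-2. That rule took 99 of the 129 snRNA genes, and 99 of 46890 nuclear genes in all. The rule uses no measured value. The data were 2 biological replicates of chromatin immunoprecipitation sequencing (ChIP-seq) of ZTF-6, a zinc finger protein, in whole young adults of 62 hours. All animals were of strain RW12301, with the allele st12301[ztf-6::TY1::EGFP::3xFLAG] on chromosome I, a CRISPR insertion in the ztf-6 gene itself, and had been synchronised as starved L1 larvae after bleaching. The antibody was against GFP. The series holds no other strain, treatment or stage, and whole animals mix all tissues, so binding in a few cells cannot be told apart from weak binding in many. No test was made on the snRNA genes, and their counts are set beside the same counts over all genes.

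Spliceosomal snRNAs act as ribonucleoproteins that recognise introns and catalyse splicing. U1 pairs with the 5′ splice site and U2 with the branch site, U4 holds U6 inactive until the spliceosome is activated, U5 aligns the exons, and U6 forms the catalytic core. In animals RNA polymerase II transcribes the U1, U2, U4 and U5 genes and RNA polymerase III the U6 genes. Both kinds of promoter hold a proximal sequence element, which the complex SNAPc binds. Vertebrate U6 promoters also have a TATA box. SmY RNAs are a nematode class that carries Sm proteins and has been linked to trans-splicing.

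The annotation gives these 99 genes no U number, so they were grouped by the sequence of their RNAs at 70% identity and named from words known in each RNA. The groups were 24 U6-type, 19 U2-type, 13 U1-type, 12 U5-type, 5 U4-type and 9 SmY genes, 7 genes similar to B0213.21, and 10 others. The others include smy-10, which is a SmY gene by its symbol. The U1-type word CTTACCTG, which lies in the stretch that pairs with the 5′ splice site, was in 12 of 13 genes. The U2-type word GTAGTA, in the branch site pairing region, was in 18 of 19. The words CCTTTTAC of the U5 loop and ACAGAGA of U6 were in 11 of 12 and 22 of 24 genes. AGCTTTGC stood in all 5 U4-type genes. ATTTTTG, a Sm protein site, stood in all 9 SmY genes and does not set them apart, since all U1-, U2- and U4-type genes and 11 of 12 U5-type genes also held it. One RNA of each of 4 groups is shown 5′ to 3′ in DNA letters, with its word in capitals, because the results are ordered by these groups. They come from RefSeq, build WBcel235, whose positions equal those of ce11: sup-39 (chrII:6968394-6968558, minus strand), F11A5.14 (chrV:16225701-16225887, minus strand), C52E4.8 (chrV:11980118-11980261, plus strand) and smy-1 (chrIV:9511763-9511839, minus strand).
sup-39: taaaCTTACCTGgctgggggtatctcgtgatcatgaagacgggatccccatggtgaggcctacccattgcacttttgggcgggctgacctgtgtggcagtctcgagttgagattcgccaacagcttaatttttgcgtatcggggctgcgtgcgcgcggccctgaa
F11A5.14: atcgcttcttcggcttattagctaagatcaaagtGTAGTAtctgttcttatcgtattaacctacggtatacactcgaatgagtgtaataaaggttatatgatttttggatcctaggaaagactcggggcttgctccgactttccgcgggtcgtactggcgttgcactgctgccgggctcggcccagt
C52E4.8: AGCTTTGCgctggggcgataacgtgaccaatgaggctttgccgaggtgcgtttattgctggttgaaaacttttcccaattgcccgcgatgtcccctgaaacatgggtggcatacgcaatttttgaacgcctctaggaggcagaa
smy-1: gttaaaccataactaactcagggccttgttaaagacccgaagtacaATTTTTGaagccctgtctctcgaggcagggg

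The RNAs repeat, while the DNA before them differs. Only 74 different RNA sequences stood behind the 99 genes, and 32 genes shared their RNA exactly with another of them. The 250 bases upstream were different in 97 cases. The 80 bases before the gene start are therefore shown for the genes with a peak in either thresholded list of both replicates, except F32B5.9, and mir-1831 because it lies inside sup-39. Capitals mark the words GCGGAACC, GCGAAACC and TATATA on the gene's strand, and the last base printed is the one before the RNA. The first 3 are U1-type, the next is U4-type, then come 2 U5-type and 5 U6-type genes. From RefSeq build WBcel235 they are sup-39 (chrII:6968559-6968638, minus strand), sup-6 (chrII:12944968-12945047, minus strand), T08G5.11 (chrV:14028636-14028715, minus strand), C52E4.8 (chrV:11980038-11980117, plus strand), F38E11.10 (chrIV:9444562-9444641, plus strand) and ZK897.4 (chrIV:12787058-12787137, plus strand), followed by F54D8.7 (chrIII:5080899-5080978, minus strand), K09C6.12 (chrV:859011-859090, plus strand), W05B2.8 (chrIII:10989599-10989678, plus strand), R07E5.16 (chrIII:4414105-4414184, plus strand) and C28A5.7 (chrIII:4426956-4427035, minus strand).
sup-39: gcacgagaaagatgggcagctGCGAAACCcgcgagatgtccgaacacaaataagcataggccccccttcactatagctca
sup-6: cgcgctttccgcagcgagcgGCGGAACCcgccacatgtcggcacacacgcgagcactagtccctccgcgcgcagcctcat
T08G5.11: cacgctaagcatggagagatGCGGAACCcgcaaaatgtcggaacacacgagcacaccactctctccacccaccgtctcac
C52E4.8: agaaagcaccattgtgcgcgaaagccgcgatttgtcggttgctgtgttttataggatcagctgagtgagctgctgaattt
F38E11.10: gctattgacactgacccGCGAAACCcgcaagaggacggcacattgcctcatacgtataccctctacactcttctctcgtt
ZK897.4: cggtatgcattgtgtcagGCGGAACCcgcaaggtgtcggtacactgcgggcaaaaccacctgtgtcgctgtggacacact
F54D8.7: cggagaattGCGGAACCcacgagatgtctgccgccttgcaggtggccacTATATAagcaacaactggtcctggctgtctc
K09C6.12: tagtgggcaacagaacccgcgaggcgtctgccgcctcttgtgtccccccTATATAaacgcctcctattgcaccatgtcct
W05B2.8: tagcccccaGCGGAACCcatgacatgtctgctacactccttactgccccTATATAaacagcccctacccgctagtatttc
R07E5.16: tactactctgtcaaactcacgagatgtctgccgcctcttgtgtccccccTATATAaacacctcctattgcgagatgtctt
C28A5.7: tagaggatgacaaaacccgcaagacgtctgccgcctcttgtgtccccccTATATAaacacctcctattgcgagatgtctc

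The same bases are shown for 3 genes with no peak in any list of both replicates and with an RNA identical or nearly identical to one above: F40G12.14 (U1-type, 95.8% identical to sup-39), F38E11.11 (U5-type, identical to F38E11.10) and K09B11.13 (U6-type, identical to R07E5.16). Their positions are F40G12.14 (chrV:14277494-14277573, plus strand), F38E11.11 (chrIV:9464639-9464718, minus strand) and K09B11.13 (chrIV:13440654-13440733, minus strand).
F40G12.14: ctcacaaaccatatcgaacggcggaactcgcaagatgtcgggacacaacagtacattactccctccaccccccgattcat
F38E11.11: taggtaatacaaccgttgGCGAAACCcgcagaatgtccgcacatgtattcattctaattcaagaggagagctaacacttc
K09B11.13: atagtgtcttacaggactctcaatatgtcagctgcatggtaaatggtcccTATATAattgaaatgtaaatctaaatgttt

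A ZTF-6 peak marked 12 of the 99 snRNA genes (12.1%), against 632 of all 46890 nuclear genes (1.35%). The exact 95% Clopper-Pearson interval of the snRNA share was 6.42 to 20.2%, which covers counting error only, and genes with the same RNA are not independent. Here a gene had a peak when a summit of the authors' conservative list lay within 500 bp of its start. The conservative list holds 551 peaks of both replicates with an irreproducible discovery rate (IDR) of at most 0.01, where the IDR estimates the share of peaks, at that rank or better, that are not reproducible. The 12 genes rested on 11 different peaks, since the 22-base gene mir-1831 lies inside sup-39 and shares its peak. The authors' second thresholded list of both replicates marked 11 snRNA genes (11.1%), against 686 of all genes (1.46%). Of these, 10 were also in the conservative list. T08G5.11 was added there, and C28A5.7 and ZK897.4 were absent.

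Values below are the authors' signal per peak, which their caller computed over a control on a scale that the sources used here leave unstated. The peak lists hold no depth, so no interval can be put on a signal. The list of each replicate has its own scale, and values are comparable within one list. In the conservative list the signal at the 12 genes was 57.5 to 99.4, with a median of 82.9, against a median of 85.7 over all 551 peaks. By signal their peaks ranked from 162 to 519 of 551. The weakest 4 were those of R07E5.16, F38E11.10, C28A5.7 and ZK897.4, at ranks 442, 459, 496 and 519.

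**Figure D1:**
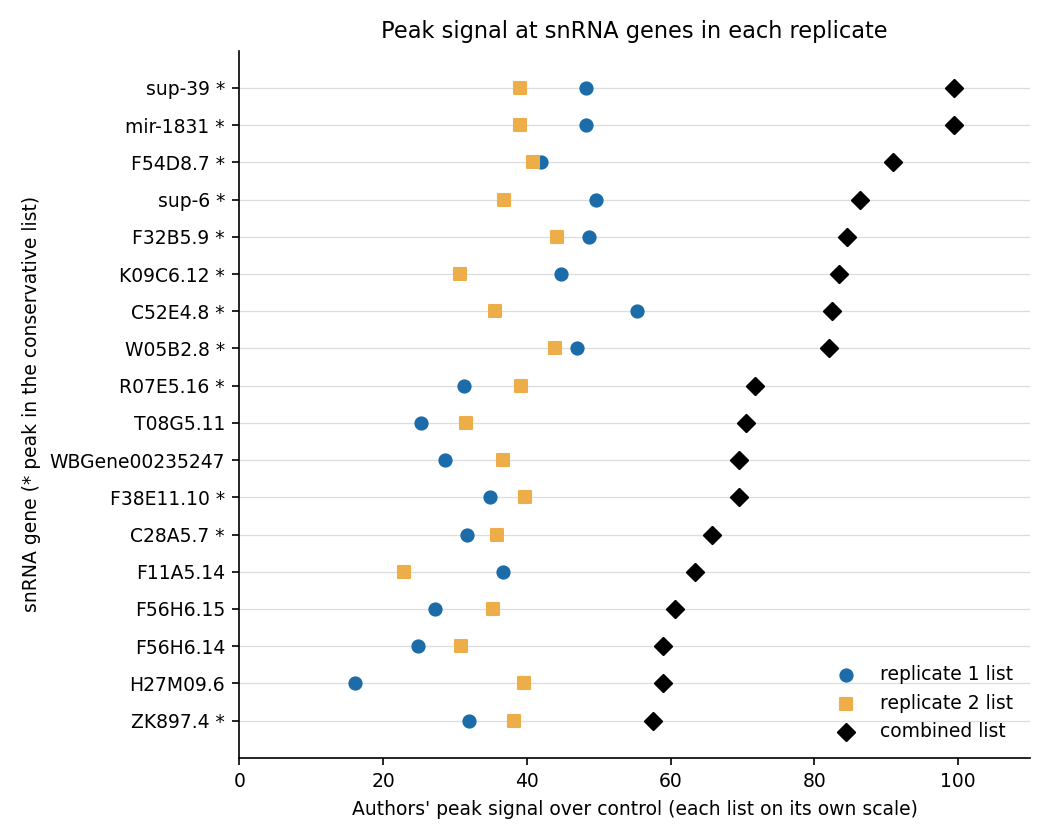
Authors' peak signal (x axis) at 18 snRNA genes (y axis): the 13 with a peak in a thresholded list and the next 5 by signal. Circles are replicate 1, squares replicate 2 and diamonds the combined ranked list, each on its own scale, and an asterisk marks a peak in the conservative list. The combined signal runs from 57.5 at ZK897.4 to 99.4 at sup-39. Both replicates have a peak within 500 bp of the start at all 18 genes, though not always the same peak.

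U1-type genes had the strongest peak of the class. sup-39 (WBGene00006344), a U1 gene first known from suppressor mutants that alter the choice of splice site, had a signal of 48.3 in replicate 1 and 39.1 in replicate 2, and of 99.4 in the conservative list. Its IDR was 0.00195 behind the conservative list, and the summit there lay 67 bp inside the gene. In the ranked lists of the single replicates its IDR was 0.435 in replicate 1 and 0.664 in replicate 2. The thresholded list of neither replicate held a peak at sup-39. sup-6 (WBGene00006315), another U1 suppressor gene, had 49.6 and 36.8 in the replicates and 86.4 in the conservative list, where the summit lay 17 bp inside the gene. Its replicate 2 value came from a summit 197 bp downstream of the start, outside the peak of the conservative list. Both genes were high in each replicate's own ranked list, at percentiles of 99.4 and 98.7 for sup-39 and of 99.5 and 98.4 for sup-6. Their RNAs were 97.6% identical, and 27 of the 100 bases upstream matched position by position with no gap allowed. GCGAAACC starts 59 bp upstream of sup-39 and GCGGAACC 60 bp upstream of sup-6. The 2 sequences are thus out of register there, which lowers the count. T08G5.11 (WBGene00014511), also a U1-type gene, had 25.2 in replicate 1 and 31.5 in replicate 2. Its combined signal of 70.5 passed in the second list alone, because its IDR was 0.0448 behind the conservative list and 0.00942 behind the other. Of the other 10 U1-type genes 9 had a ranked peak, H27M09.6 the highest with 58.9. The replicates differed at H27M09.6, with a percentile of 51.3 in replicate 1 and of 98.8 in replicate 2.

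No U2-type gene had a peak in a thresholded list, although 15 of 19 had one in the longer ranked list, from which the conservative list was taken. The strongest were F11A5.14 with a combined signal of 63.4, F56H6.15 with 60.6 and F56H6.14 with 59.0. F11A5.14 had 36.7 in replicate 1 and 22.9 in replicate 2, and its summit lay 144 bp inside the gene. F56H6.15 had 27.2 and 35.3, with the summit 323 bp downstream of its start, beyond the end of its 187-base gene. These values exceed the 57.5 of the weakest gene in the conservative list, so it was by IDR and not by signal that they missed the list, and the IDR of the 3 genes was 0.0683, 0.0214 and 0.0499. U2-type genes also had the least unique sequence, which is described further on.

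The U4-type gene C52E4.8 (WBGene00014291) was the only one of 5 with a thresholded peak. Its signal of 55.4 in replicate 1 was the highest among the 12 genes in that list, with 35.6 in replicate 2 and 82.5 in the conservative list. The summit lay 9 bp upstream of the start. T11F9.15, whose RNA is identical to it, had a combined signal of 14.8, a replicate 2 signal of 12.6 and no peak in replicate 1. The C52E4.8 peak also lay 386 bp upstream of snr-4, which encodes a Sm protein of the snRNP core, so the peak counts for both genes. It was the only peak at a snRNA gene that a protein-coding gene shared.

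U5-type genes supplied 3 of the 12. F32B5.9 (WBGene00044927) had 48.6 in replicate 1, 44.2 in replicate 2 and 84.6 in the conservative list, with the summit 19 bp upstream. Its IDR of 0.00128 was the lowest of any snRNA gene behind the conservative list. F38E11.10 (WBGene00014366) had 34.9 in replicate 1, 39.8 in replicate 2 and 69.5 in the conservative list, where the summit lay 66 bp upstream. The replicate 2 value came from a summit 297 bp downstream of the start, outside the peak of the conservative list. ZK897.4 (WBGene00014633) had 32.0 in replicate 1, 38.2 in replicate 2 and 57.5 in the conservative list, with the summit 80 bp inside the gene. It was the weakest of the 12 and its IDR was 0.00775 behind the conservative list and 0.0349 behind the other. F38E11.11 encodes the same RNA as F38E11.10 19996 bp away and had no peak in any of the 8 lists. In this group 6 of 12 genes had no peak even in the ranked list.

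U6-type genes were the largest group and held 5 of the 12. F54D8.7 (WBGene00195000) had the highest signal of them, with 41.9 in replicate 1, 40.9 in replicate 2 and 91.0 in the conservative list. The other 4 encode 1 identical RNA. K09C6.12 (WBGene00235188) had signals of 44.7 in replicate 1, 30.7 in replicate 2 and 83.4 in the conservative list. In the same order W05B2.8 (WBGene00014543) had 47.0, 43.9 and 82.0, R07E5.16 (WBGene00014484) had 31.3, 39.2 and 71.8, and C28A5.7 (WBGene00014266) had 31.6, 35.8 and 65.8. Within the ranked list of each replicate, K09C6.12 stood at percentile 99.2 in replicate 1 and 96.1 in replicate 2, and R07E5.16 at 96.7 and 98.7. F54D8.7 and W05B2.8 were at 98.9 or higher in both. C28A5.7 was the gene just inside the threshold, with an IDR of 0.00979 behind the conservative list. It had no peak in the other ranked list of both replicates. In the ranked lists of replicate 1 and replicate 2 its IDR was 0.255 and 0.878. Just outside the threshold was another gene of the same RNA, WBGene00235247, with an IDR of 0.0148 and a combined signal of 69.5.

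The 14 U6-type genes with that identical RNA differed widely in ZTF-6 signal. Of the 14, 4 had a peak in the conservative list, 6 only in the ranked list behind it, and 4 in neither. One of these 4, F54C8.8, had a signal of 16.8 in the other ranked list of both replicates. The ranked signals ran from 25.1 to 83.4, with a median of 56.5. The same held for a second RNA shared by 3 genes, where F54D8.7 had 91.0, T08B6.62 had 37.1 and Y17G9A.85 had no peak in the lists of both replicates, with a signal of 14.5 in the ranked list of replicate 2. Genes of 1 RNA differed in the DNA around it: of 100 upstream bases, R07E5.16 matched C28A5.7 at 71, K09C6.12 at 68 and W05B2.8 at 50 positions, and matched K09B11.13, which had no peak, at 22. These counts allow no gap, and a shift between 2 sequences lowers them. TATATA starts at different positions in R07E5.16 and K09B11.13, so the 22 does not measure how alike they are. A relation of upstream likeness to the peaks was not tested. These genes also differ in how unique their sequence is, which is described further on.

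The remaining groups had 1 thresholded peak among them. None of the 9 SmY genes and none of the 7 genes similar to B0213.21 had a thresholded peak. The highest ranked signals there were 31.3 at smy-8 and 42.7 at B0213.23. Among the 10 genes outside all groups only mir-1831 (WBGene00077724) had one, by its position inside sup-39. The next of these 10 was M163.13 with 35.3.

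**Figure D2:**
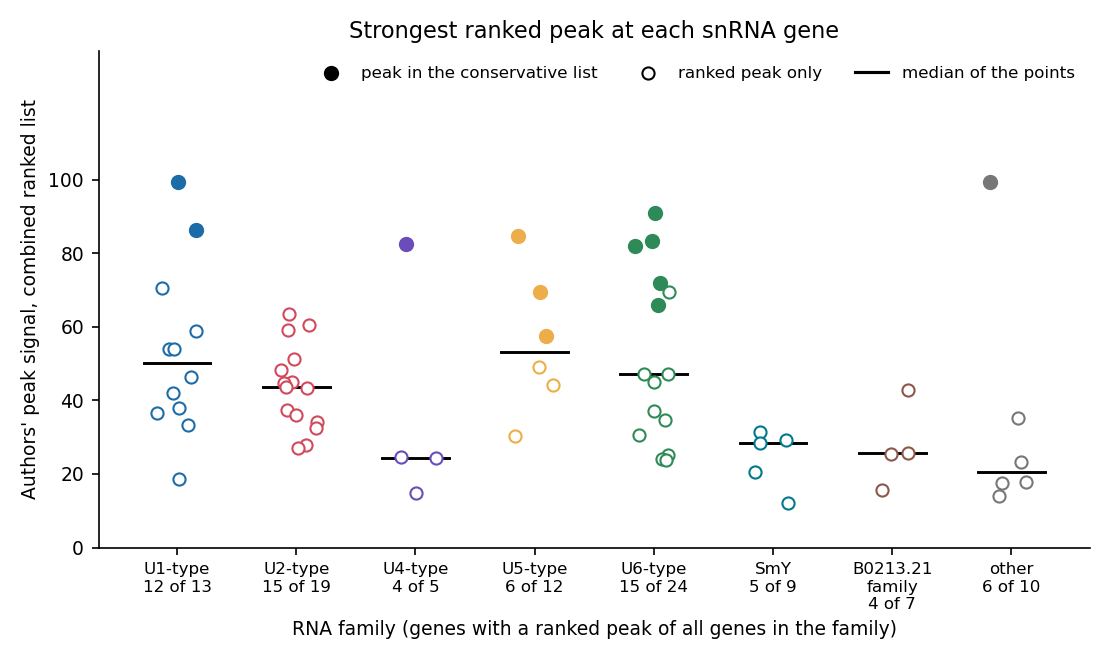
Authors' signal of the strongest ranked peak within 500 bp of each snRNA gene (y axis), by RNA family (x axis). Filled points have a peak in the conservative list, open points in the ranked list only, bars are the medians of the points, and genes without a ranked peak are not drawn. Filled points stand in the U1-, U4-, U5- and U6-type groups and, for mir-1831 alone, among the others, and the U2-type points end at 63.4.

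The ranked list behind the conservative list holds 74251 peaks, including those of the conservative list. It had a summit near 67 of the 99 snRNA genes (67.7%), against 21959 of all genes (46.8%). For genes with such a peak, the median signal percentile within that list was 91.4 for the 67 snRNA genes and 64.8 for all 21959 genes. Both medians include genes with a peak in the conservative list. Of the 87 snRNA genes without one, 55 had a ranked peak, with a median percentile of 81.8. By group the median percentile was 97.1 for U5-type, 96.1 for U1-type, 95.2 for U6-type, 93.0 for U2-type, 64.9 for SmY, 55.1 for the genes similar to B0213.21, 51.2 for U4-type genes and 37.7 for the genes outside all groups. A percentile of 95 or more was reached by 25 snRNA genes (25.3%), against 5.44% of all genes. The 25 include the 12 of the conservative list. No summit of that list lay near the other 32 snRNA genes, of which 7 had a peak in the ranked list of replicate 1 and 4 in that of replicate 2.

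The replicates alone gave fewer calls. In the thresholded list of replicate 1, 3 snRNA genes had a peak (3.03%), against 0.497% of all genes. These were C52E4.8, W05B2.8 and sup-6, with IDR values of 0.00128, 0.0028 and 0.00402. The thresholded list of replicate 2 had none, against 0.693% of all genes, and the lowest IDR of a snRNA gene in its ranked list was 0.0312, at F54D8.7. In the ranked lists the counts were 64 genes in replicate 1 (64.6%), against 35.5% of all genes, and 59 in replicate 2 (59.6%), against 39.4% of all genes. The 12 genes of the conservative list were high in both, at percentiles of 96.7 to 99.6 in replicate 1 and of 96.1 to 99.1 in replicate 2. That list was selected by IDR from both replicates, so high percentiles in both follow in large part from the selection. A peak in both ranked lists was found at 51 snRNA genes, in replicate 1 alone at 13, in replicate 2 alone at 8, and in neither at 27. Over the 51 genes Spearman's rho between the percentiles was 0.637, as a description, since neighbouring genes share peaks and both lists rest on a control alignment. Over the 9964 genes of any kind with a peak in both lists it was 0.371.

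**Figure D3:**
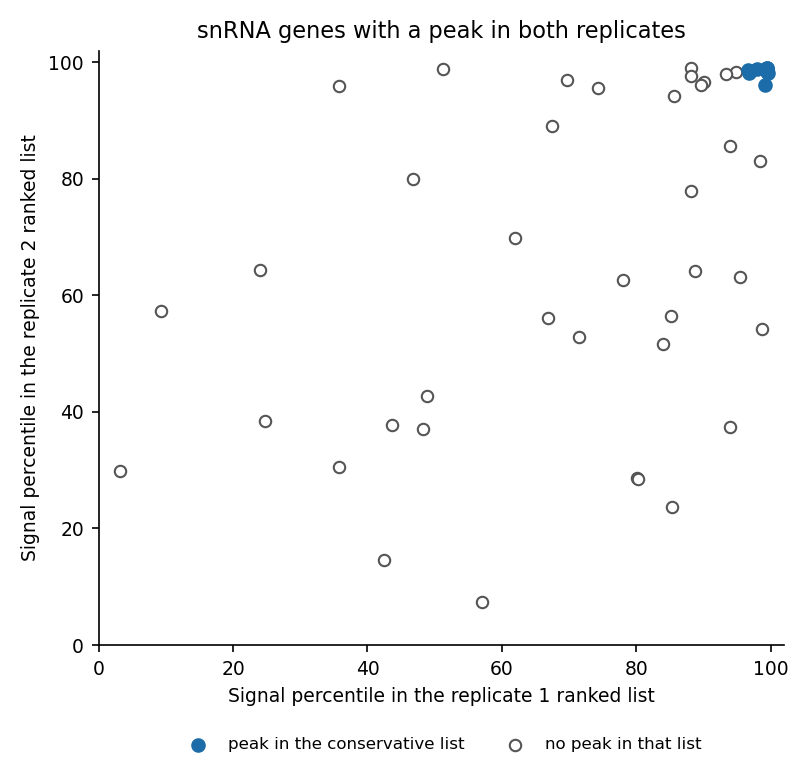
Signal percentile within the ranked list of replicate 1 (x axis) and of replicate 2 (y axis) for the 51 snRNA genes with a peak in both. Filled points have a peak in the conservative list, which was selected by IDR from both replicates, and sit above 96 on both axes. Open points spread over both axes.

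The authors' q-values at the 12 genes ran from 0.0382 at sup-39 to 0.309 at ZK897.4, and 2 of the 11 peaks, those of sup-39 and F54D8.7, were at or under 0.05.

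Summits lay close to the snRNA gene starts. All 12 genes of the conservative list had the summit within 100 bp, from 66 bp upstream to 80 bp downstream, with a median absolute distance of 57.5 bp. Of the 12 summits 6 were upstream of the start, 5 inside the transcribed part and 1 beyond the gene's end, at mir-1831. Over all 632 genes with a peak 45.7% had the summit within 100 bp. Among the 67 snRNA genes with a ranked peak the share within 100 bp was 52.2%, against 24.2% of all genes with one. Nearly all peaks have 1 fixed width of 280 bp in these lists, and each RNA is shorter than that, so upstream and transcribed DNA cannot be told apart at most of these genes.

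**Figure D4:**
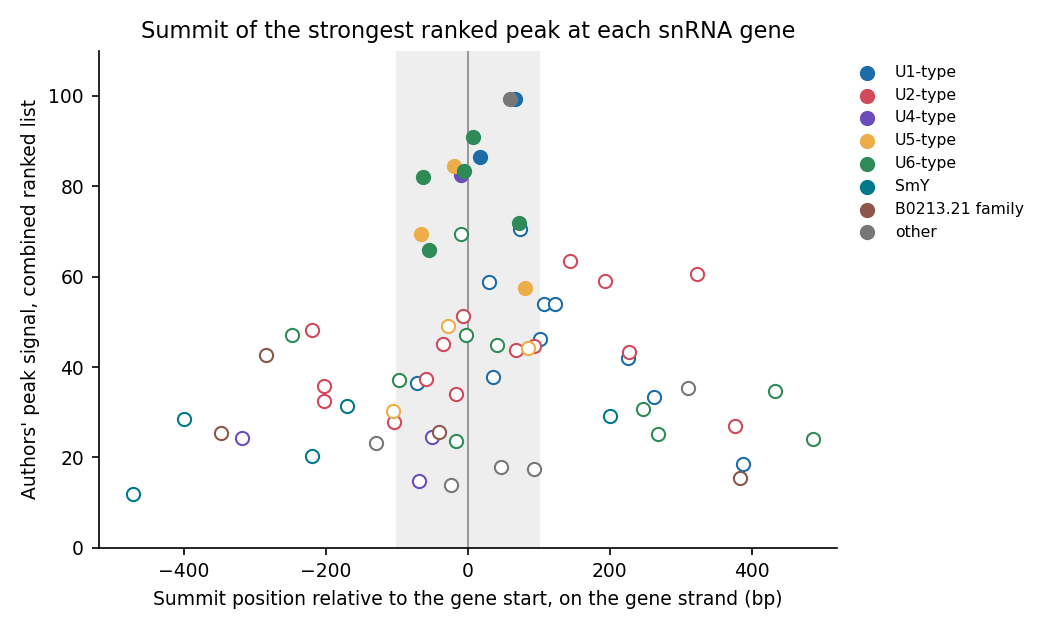
Distance of the strongest ranked summit from the gene start in bp, on the gene's strand (x axis), against the authors' signal (y axis), for 67 snRNA genes coloured by family. Filled points have a peak in the conservative list and fall inside the grey band of 100 bp each side, and open points reach from 471 bp upstream to 487 bp downstream.

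Because the genes repeat, the share of 50-base words that occur once in the genome was taken over 250 bp each side of each start. Short reads from repeated words can be lost or shared between copies, and the sources used here do not state how the authors placed them. The unique share had a median of 82.6% (71.2 to 93.1%) at the 12 genes with a peak and of 84.3% (0 to 100%) at the other 87. By group the median was lowest for the U2-type genes, at 56.9%, where F15H9.5 and F15H9.6 had no unique word and no peak. It was 83.4% for U6-type, 80.5% for U1-type, 80.8% for U4-type and 91.0% for U5-type genes, and 100% for SmY genes. F38E11.10 and F38E11.11 have the same unique share, 82.7%, and only the first had a peak. Among the 14 U6-type genes with 1 identical RNA, the share differed. It was 71.2 to 87.2% at the 4 with a peak in the conservative list. Of the others, WBGene00235247 had 84.5% and Y17G9A.90 had 84.3%, and the rest had 46.7 to 68.1%. A unique share under 50% was found at 8 of all 99 genes. Of these 8, none had a peak in the conservative list and 2 were among the 32 genes with no ranked peak. The part of repeated sequence in the counts was not tested.

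**Figure D5:**
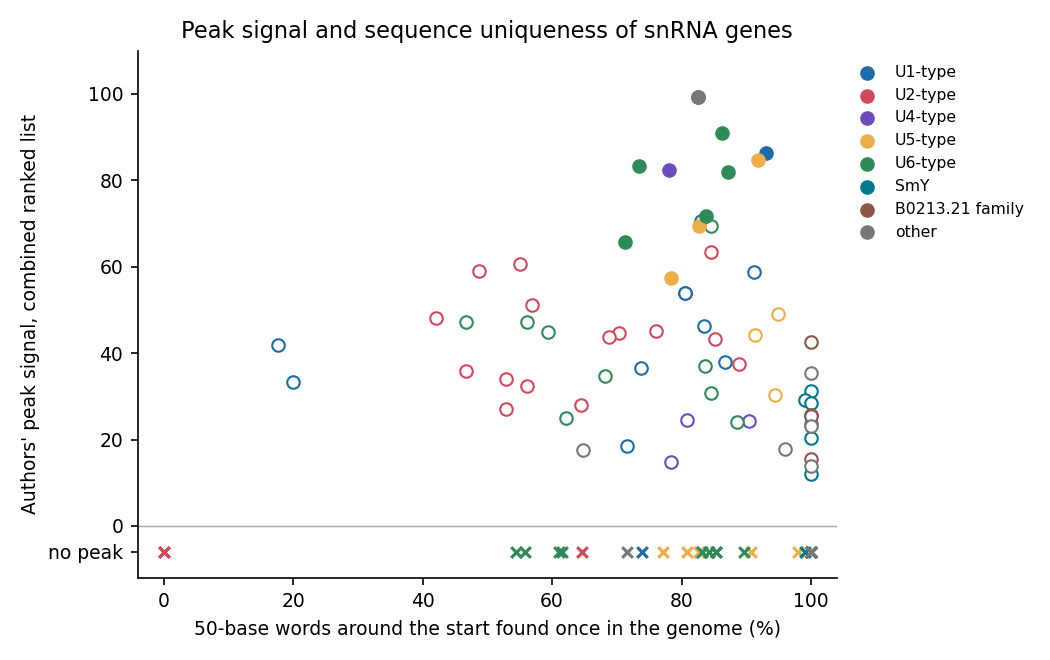
Share of 50-base words around each gene start that occur once in the genome, in percent (x axis), against the authors' signal in the combined ranked list (y axis), for all 99 snRNA genes coloured by family. Filled points have a peak in the conservative list, open points a ranked peak only, and crosses no ranked peak. The filled points lie between 71.2 and 93.1% unique, and the points of sup-39 and mir-1831 coincide.

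The upstream DNA of the snRNA genes held short words that are rarer over all genes. GCGGAACC, searched on both strands in the 100 bases before the start, was present at 26 of 99 snRNA genes (26.3%), against 0.183% of all genes, and its first base lay at a median of 62 bp upstream, between 75 and 57 bp. GCGAAACC was present at 13 (13.1%), against 0.186% of all genes, and sup-39 and mir-1831 among them share the same occurrence. These words also occur in like classes. GCGGAACC lay upstream of 19 of 346 snoRNA genes and of 4 trans-spliced leader genes, and GCGAAACC of 5 and 2. TGTCGGTA was present at 18 (18.2%), against 0.149% of all genes, 13 of them U2-type, with its first base 47 or 48 bp upstream. TATATA was present at 20 (20.2%), against 5.07% of all genes, and 16 of these were U6-type with its first base 30 or 31 bp upstream. GCGGAACC, GCGAAACC and TATATA were chosen after the upstream sequences had been examined, and TGTCGGTA was the 8-base word that the most genes held at 1 fixed offset. The words do not overlap each other in the sequences shown. The spacing differed by group: the median first base of GCGGAACC was 71 bp upstream in U6-type genes, 60 in U1-type and SmY genes, 62 in U5-type and 63 in U4-type genes.

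Among genes that carried GCGGAACC or GCGAAACC, 8 of 39 snRNA genes had a peak in the conservative list (20.5%), and among the 60 without either word 4 had one (6.67%). In the ranked list the counts were 27 of 39 with either word (69.2%) and 40 of 60 with neither (66.7%). Of the 60 genes outside the snRNA class with GCGGAACC upstream, 4 had a peak. All 5 U6-type genes with a peak were among the 16 with TATATA, of which 13 had a ranked peak, while 2 of the 8 U6-type genes without it had one. These are counts over few genes that share sequence. The 8 and the 39 include both sup-39 and mir-1831, which share the same GCGAAACC and the same peak. Summits did not keep 1 distance from the word, and lay from 3 bp before the first base of GCGAAACC at F38E11.10 to 142 bp after that of GCGGAACC at ZK897.4. Other words searched over 250 upstream bases on both strands were no more frequent than in all genes in 4 of 6 cases: TATAAA was in 30.3% of snRNA genes and 34.1% of all genes, CTGTTTC in 5.05% and 21.4%, TTTCCG in 15.2% and 18.1%, and TTTTT in 74.7% and 95.7%. CGTGG was in 23.2% of snRNA genes and 14.6% of all genes, and GGTTCGA in 3.03% and 1.46%.

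Where the genes lie is described next. Introns of protein-coding genes held 48 snRNA genes, of which 8 had a peak in the conservative list, among them W05B2.8 in dhc-4, R07E5.16 in mpc-1 and ZK897.4 in unc-31. A further 39 lay outside protein-coding genes, with 3 peaks, and 12 overlapped a protein-coding exon, with 1, K09C6.12 in K09C6.2. Among all other genes that do not encode proteins a peak was found at 132 of 8504 in such introns, at 195 of 16213 outside protein-coding genes and at 25 of 2101 over their exons. Genes with another snRNA gene start within 10000 bp numbered 54, of which 3 had a peak, and the 45 more isolated genes had 9. No matching count by distance was made over all genes. The median unique share was 82.9% in the clustered genes and 84.5% in the isolated ones. The clustered genes with a peak were sup-39, mir-1831 and ZK897.4. Of these, sup-39 and mir-1831 count as clustered only through each other. Their starts lie 7 bp apart and they share 1 peak. By chromosome, III had 4 of 7 snRNA genes with a peak, II 3 of 13, IV 2 of 36, V 2 of 28, I 1 of 12 and X none of 3. Over all genes the share was also highest on III, with 108 of 3859 genes, against 2.26% on X, 2.19% on I, 2.06% on II, 1.07% on V and 0.528% on IV.

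Of the 11 peaks, 6 had no other gene start within 500 bp. The other 5 also counted for 8 genes outside the class. The sup-39 peak lay 153 bp upstream of the piRNA gene 21ur-14704 and 99 bp into C15F1.14, an ncRNA gene. The sup-6 peak lay 34 bp upstream of F58G1.11 and 178 bp downstream of the start of F58G1.12, both ncRNA genes. The C52E4.8, F38E11.10 and C28A5.7 peaks lay 150, 190 and 160 bp downstream of the starts of the ncRNA genes C52E4.14, F38E11.24 and C28A5.9, and in the second list the T08G5.11 peak lay 100 bp downstream of that of T08G5.18.

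Proteins that make or bind snRNAs were examined through 6 lists of 60 symbols, of which 55 matched a gene. A peak of the conservative list within 500 bp of an annotated transcript start was found at 4 of the 55, against 1.46% of all protein-coding genes. They were snr-1 (87.3, summit 407 bp upstream) and snr-4 (82.5, 386 bp upstream), which encode Sm proteins, ints-8 (74.9, 58 bp upstream), a subunit of the Integrator complex that processes snRNA ends, and snpc-3.4 (68.7, 81 bp upstream), of the SNAPc family. The snr-4 peak is the one already counted for C52E4.8, whose start is nearer to the summit, at 9 bp. Replicate 1 and replicate 2 had signals of 47.8 and 38.9 at snr-1, of 44.4 and 38.0 at ints-8, and of 33.9 and 34.7 at snpc-3.4. By list, the counts were 2 of 7 Sm protein genes, 1 of 10 Integrator genes, 1 of 11 SNAPc and TBP genes, and none of 8 Lsm, 7 assembly and modification and 12 other snRNP protein genes. The Lsm gene lsm-6 passed in the second list, with 63.5. A ranked peak was present at 41 of the 55, against 60.7% of protein-coding genes.

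Other small RNA genes are set beside the snRNA genes with no test of a difference. The 12.1% of snRNA genes stood beside 5 of 18 SL2 leader genes (27.8%), none of 12 SL1 leader genes, 45 of 346 snoRNA genes (13.0%) and 99 of 612 tRNA genes (16.2%). In the ranked list the median percentile was 91.4 for snRNA, 92.0 for SL2, 85.2 for snoRNA and 96.5 for tRNA genes. Summits within 100 bp made up 100% at the snRNA genes with a peak, as at all 5 SL2 leader genes with one, 75.6% at snoRNA, 86.9% at tRNA and 22.8% at protein-coding genes, whose median summit lay 198 bp upstream.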

How the data were processed

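Peak positions were deposited by the authors on ce11, per the labels. Per the deposited file lists, peaks came from filtered alignments against a control alignment, and the thresholded lists also from a further annotation file that was not used here. The sources used here do not state the aligner, the peak caller or the depth. The deposited signal per peak is the authors' value over control, and the deposited q-values and IDR are −log10 values, turned here into linear ones. Every peak of the conservative list was found in 1 of the ranked lists of both replicates, which served as its ranked list.

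Genes came from Ensembl release 115 and sequence from RefSeq, where all 99 snRNA genes matched. A gene was credited with each summit up to 500 bp from its annotated start, and its strongest peak in each list gave its values. The values of a gene in different lists can therefore come from different peaks. One peak could serve several genes. The assignment was tested on simulated data. RNAs were aligned with Biopython 1.88, and intervals came from scipy 1.17.1.

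The genes, lists and tests were chosen with earlier results of these data known. Named were all snRNA genes with a peak in any thresholded list, the next 5 by ranked signal, genes sharing those peaks, and listed genes with a peak. Other examples were chosen after their values were seen. Alternatives were other lists, thresholds, windows, assignments and single replicates. The labels call the replicates biological, and there is 1 group.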

Additional observations from a re-analysis of the deposited data

How the results depend on the processing

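The count of 12 snRNA genes and 11 peaks, and of 632 genes in all, was recomputed with 1 choice changed at a time. The 12 genes and their 11 peaks were the same with windows of 200 and 1000 bp and with any base of the peak counted in place of the summit, against 426, 861 and 711 genes in all (0.909, 1.84 and 1.52%). At an IDR of at most 0.05 in the ranked list there were 18 genes on 16 peaks, including all 12, against 1194 genes in all. Giving each peak only to the nearest start left 11 snRNA genes, without sup-39, against 363 genes in all. With 1 gene per identical RNA, 9 of 74 had a peak.

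Stricter or single-replicate settings changed the counts. An IDR of at most 0.001 left 0 snRNA genes and 0 peaks, against 204 genes in all. Leaving out 1 replicate in turn left 0 to 3 snRNA genes and 0 to 3 peaks, against 233 to 325 genes in all. The cause was not tested. Some settings were chosen after seeing the data. A q-value of at most 0.05 left 3 snRNA genes on 2 peaks, against 273 genes in all. All ranked peaks at an IDR of at most 0.01 gave the same 12 genes, 11 of 98 remained without mir-1831, and 12 of 91 genes with at least 50% unique words had a peak.

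No paired analysis was possible because the replicates form 1 group with no second condition. The unknown depth limits how firmly the absence of a peak can be read. The lists hold only peaks that the authors' caller kept.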
